A study of Homo sapiens with 18 samples.

Results

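Kinetochore and centromere genes were followed across all 6 groups of a study of the prostate cancer cell lines LNCaP and LNCaP-abl. The genes were taken by name from the platform's annotation: 32 genes were listed and all 32 were found, among 19775 genes that the annotation names. They had 55 probe sets, 1 for each of 20 genes and several for the other 12, and each gene was represented by its brightest probe set. Tests were run on genes with at least 3 array values of 5.88 or more on the log2 scale, 5.88 being the median of the whole table. Of the 32 genes 30 passed. CENPI and SKA1 did not, and are given separately.

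LNCaP is a human line from a metastasis of a prostate adenocarcinoma that responds to androgen, and LNCaP-abl is a subline obtained by long culture without androgen, which grows in its absence. For 48 h the cells carried either a control siRNA or one against TRIM24, a chromatin-binding coregulator of nuclear receptors, in serum stripped of steroids, and they received for 24 h either ethanol or, at 10 nM, DHT (dihydrotestosterone), the main active androgen in prostate cells. The 6 groups of 3 arrays were LNCaP with control siRNA and vehicle, LNCaP with TRIM24 siRNA and vehicle, the same pair with DHT, and, for LNCaP-abl, either siRNA with vehicle; there was no LNCaP-abl group with DHT. All groups, controls included, were transfected, and the labels place hormone starvation before vehicle or DHT was given. The labels give neither the number nor the sequence of the siRNAs, so loss of TRIM24 and other effects of its siRNA cannot be told apart. They describe the culture, starvation included, by the name of LNCaP alone, in a text that the LNCaP-abl samples share, and do not say whether replicates were separate cultures, so the p-values reflect array-to-array spread that may be no more than technical.

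TRIM24 itself checked the labels: its mean log2 value was 9.70 with control and 7.71 with TRIM24 siRNA in vehicle-treated LNCaP, 10.14 and 8.004 under DHT, and, for LNCaP-abl, 9.53 and 7.45. Arrays of a group correlated at 0.9963 to 0.9983 over all probe sets, and array medians lay between 5.83 and 5.93. Of 9 prostate luminal markers 7 were on the array under their names (KLK3, HOXB13, FOLH1, TMPRSS2, KRT8, KRT18 and EPCAM), all 7 above 5.88, with a mean of 9.72 to 11.69 over the groups. The 3 basal markers measured were all below it, and 3 of 5 fibroblast, 1 of 3 leukocyte and 2 of 3 endothelial markers passed, with list means of 4.59 to 5.86.

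The kinetochore is the protein machine that ties each chromosome to the spindle. It is built on nucleosomes that carry CENP-A, a histone H3 variant that HJURP and the MIS18 proteins place at centromeres. The constitutive centromere-associated network sits on this chromatin and holds the KNL1, MIS12 and NDC80 complexes, of which NDC80 binds microtubules and KNL1 recruits the spindle checkpoint. The SKA complex strengthens the grip on microtubules, and an outer corona with CENP-E, CENP-F and the ROD-ZW10-Zwilch complex catches them early in mitosis. Many of these genes are transcribed mainly in G2 and mitosis, so in bulk RNA their level follows the share of dividing cells. Fewer dividing cells and less RNA per cell cannot be told apart here.

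Many promoters of genes active in G2 and mitosis carry a cell cycle homology region (CHR), often with CCAAT boxes upstream. Promoter windows of 300 bases, from 250 before to 50 after a start, were taken from RefSeq (GRCh38.p14) for 27 of the 32 genes; MIS18A, CENPH, CENPL, CENPM and KNL1 had none. The stretches below, 120 bases before the start and 30 after it, belong to the genes that the results turn on most: CENPF, CENPE, NUF2, NDC80 and SPC25, with some of the largest falls after TRIM24 siRNA, CENPN, with the largest rise with DHT, and ZW10, which passed no test. They lie at chr1:214603075-214603224 (plus strand) for CENPF, chr4:103198314-103198463 (minus) for CENPE, chr1:163321834-163321983 (plus) for NUF2, chr18:2571437-2571586 (plus) for NDC80, chr2:168890401-168890550 (minus) for SPC25, chr16:81007094-81007243 (plus) for CENPN and chr11:113773663-113773812 (minus) for ZW10. Capitals mark the CHR letters TTTGAA or TTCGAA and the box CCAAT, on either strand (TTCAAA and ATTGG when read on the other).
CENPF: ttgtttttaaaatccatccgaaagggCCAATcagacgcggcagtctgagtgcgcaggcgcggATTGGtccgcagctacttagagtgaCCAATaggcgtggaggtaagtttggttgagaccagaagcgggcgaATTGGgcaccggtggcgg
CENPE: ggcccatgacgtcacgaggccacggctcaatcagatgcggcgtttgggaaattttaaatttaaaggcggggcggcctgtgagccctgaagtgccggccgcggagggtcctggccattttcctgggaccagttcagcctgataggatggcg
NUF2: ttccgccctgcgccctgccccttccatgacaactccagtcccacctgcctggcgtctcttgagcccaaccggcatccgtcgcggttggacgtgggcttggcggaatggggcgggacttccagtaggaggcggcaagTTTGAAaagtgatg
NDC80: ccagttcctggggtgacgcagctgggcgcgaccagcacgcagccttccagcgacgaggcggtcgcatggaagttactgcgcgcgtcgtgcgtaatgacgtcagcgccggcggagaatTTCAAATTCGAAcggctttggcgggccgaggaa
SPC25: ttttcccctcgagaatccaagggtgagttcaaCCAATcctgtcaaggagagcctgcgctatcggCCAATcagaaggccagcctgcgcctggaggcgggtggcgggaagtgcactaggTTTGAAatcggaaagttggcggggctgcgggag
CENPN: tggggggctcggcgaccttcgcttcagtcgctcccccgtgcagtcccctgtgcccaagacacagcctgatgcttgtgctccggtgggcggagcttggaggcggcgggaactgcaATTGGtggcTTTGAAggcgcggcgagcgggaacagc
ZW10: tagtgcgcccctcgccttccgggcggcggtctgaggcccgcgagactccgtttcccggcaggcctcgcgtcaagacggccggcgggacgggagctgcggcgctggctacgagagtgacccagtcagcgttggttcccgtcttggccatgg

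In these stretches the CHR letters of NUF2 lay at bases 17 to 22 after the start, those of CENPN at bases 4 to 9, and NDC80 held an adjoining pair around its start. CENPF carried 4 CCAAT boxes and its CHR letters lay at bases 41 to 46, beyond the stretch shown. CENPE had neither motif in its whole window. ZW10 had both in its window, upstream of the stretch shown. In all, 15 of the 27 windows of the kinetochore and centromere genes (55.6%) held the CHR letters, against 19.5% of 27305 genes in the table. CCAAT was found in 18 (66.7%, against 39.7%), and an E2F site (TTTGGCGC, TTTCGCGC, TTTCCCGC or TTTGCCGC, both strands) in 4 (14.8%, against 4.0%), those of CENPA, OIP5, CENPU and MIS12. A match is a match of letters, not a bound site. Of the tested genes with the CHR letters 11 of 14 fell with TRIM24 siRNA in LNCaP-abl, with a median log2 fold change of -1.26, and of those without them 11 of 11 fell, with a median of -0.61; 28.8% of all genes tested were called lower there.

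Across the 18 arrays the kinetochore and centromere genes were highest in LNCaP-abl with control siRNA. This group ranked highest for 26 of the 30 tested genes, and LNCaP with TRIM24 siRNA and vehicle ranked lowest for 15. The median deviation of the 30 genes from their own means was 0.86, 0.89 and 0.86 on the 3 LNCaP-abl control arrays and -0.08, -0.03 and -0.05 on those with TRIM24 siRNA. In LNCaP with vehicle it was -0.24, -0.16 and -0.19 with control and -0.39, -0.46 and -0.37 with TRIM24 siRNA. With DHT it was 0.03, 0.00 and 0.06 with control and -0.29, -0.27 and -0.31 with TRIM24 siRNA. The arrays of each pair of siRNA groups did not overlap in this median.

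**Figure D1:**
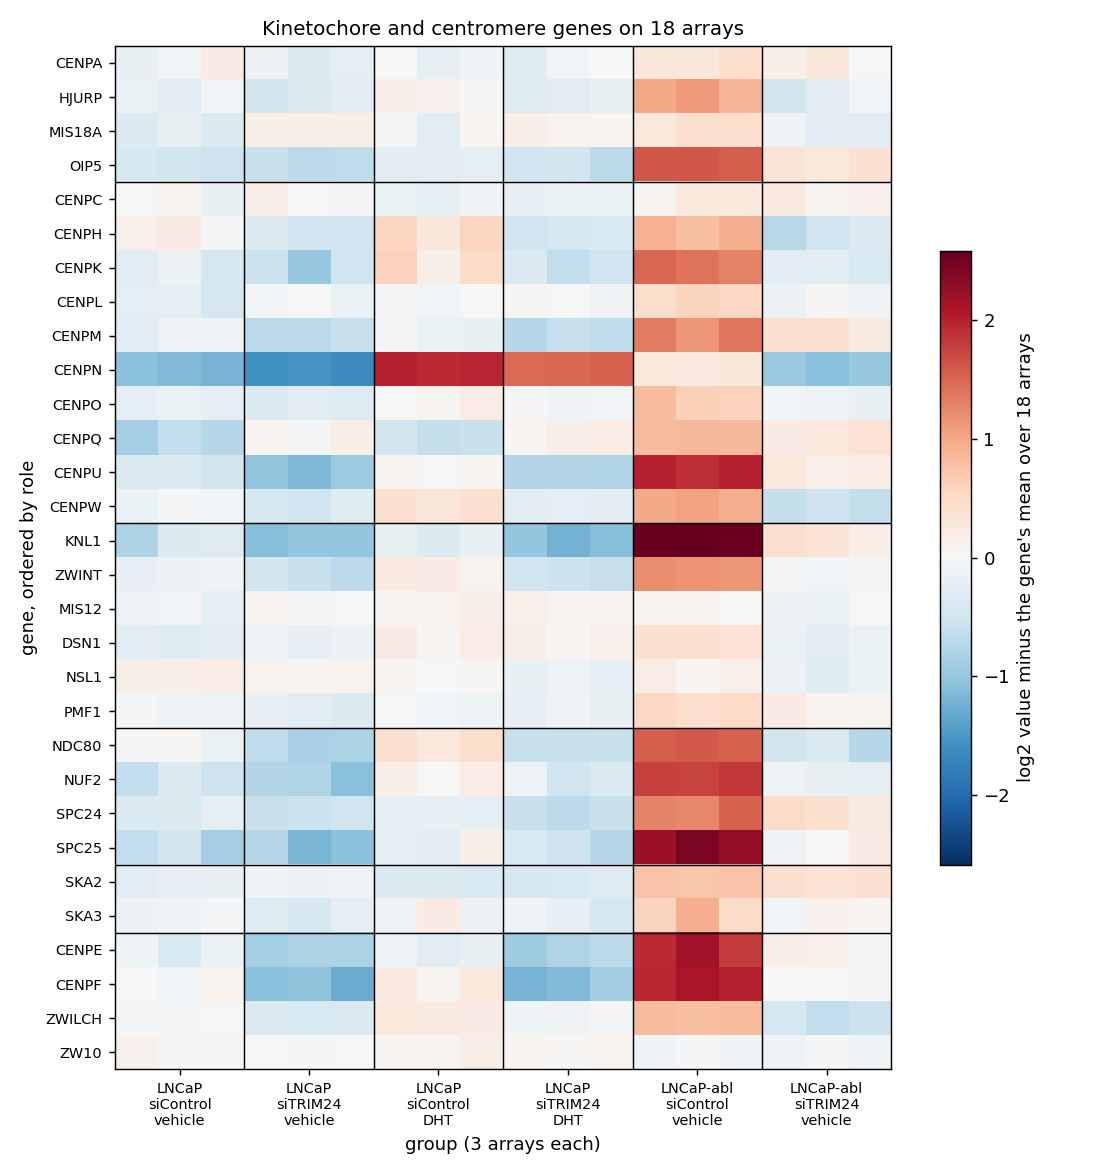
Log2 value of each of the 30 tested kinetochore and centromere genes (rows, ordered by role, lines between roles) on each of the 18 arrays (columns, 3 per group), as the deviation from the gene's mean over the 18 arrays (colour scale). The LNCaP-abl control columns are highest for most rows, with a median deviation of 0.86 to 0.89, and CENPN stands out in the DHT columns.

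In LNCaP-abl nearly every kinetochore and centromere gene fell with TRIM24 siRNA. Of 30 tested genes 27 fell, none rose, and CENPA, CENPC and ZW10 did not pass (limma, Benjamini-Hochberg adjusted p under 0.05 over 13607 genes). Over all genes 28.8% were called lower and 16.7% higher. The median log2 fold change of the 30 was -1.09, that of all tested genes -0.011, and 15 of the 30 fell by at least 1 on the log2 scale, a 2-fold change. The share of all genes that fell 2-fold or more was not counted, nor was any share without the filter. CENPK and SPC25 passed the filter on low values only through the LNCaP-abl control group, and KNL1 through the 2 LNCaP-abl groups. HJURP passed through the 3 groups with control siRNA. CENPQ, CENPE and CENPF passed through 4 groups, the LNCaP-abl ones and, of LNCaP, those with TRIM24 siRNA for CENPQ and with control siRNA for CENPE and CENPF. All these genes were thus bound to differ between some groups. Without the filter 29 of all 32 fell, CENPI by 0.64 ± 0.17 (SE; adjusted p = 0.00975) and SKA1 by 0.53 ± 0.11 (adjusted p = 0.00117) among them.

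The NDC80 complex, the main microtubule coupler, fell most, with all 4 subunits called and a median of -2.04. SPC25 had log2 values of 7.45, 7.65 and 7.48 with control and 5.12, 5.19 and 5.42 with TRIM24 siRNA. NDC80 had 8.43, 8.45 and 8.39 against 6.398, 6.49 and 6.12. The control and siRNA arrays of both were far apart. SPC25 passed the filter on low values only through this control group. Its fall was thus bound to appear, and its rank and p-value add no support for the complex. SPC25 fell to 20.6% of the control level (log2 fold change -2.28 ± 0.14, SE, n = 3 per group; limma adjusted p = 3.12e-09) and NDC80 to 23.5% (-2.09 ± 0.08; adjusted p = 1.23e-11). NUF2, the partner of NDC80, fell to 25.3%. SPC24, the partner of SPC25, fell least of the complex, from 8.85, 8.81 and 9.09 to 8.06, 7.98 and 7.79. Its arrays did not overlap either, at 50.9% of the control level, but a second, dimmer probe set of SPC24 gave -0.035 (SE 0.096), so the fall of SPC24 rests on 1 of 2 probe sets.

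All 6 genes of the KNL1 and MIS12 complexes fell, with a median of -0.49. KNL1, the scaffold that recruits the checkpoint proteins, had 8.18, 8.20 and 8.15 with control and 6.01, 5.96 and 5.79 with TRIM24 siRNA, a fall to 20.9% of the control level (-2.26 ± 0.10; adjusted p = 5.42e-11). ZWINT, which joins KNL1 to the corona, went from 9.90, 9.86 and 9.81 to 8.64, 8.62 and 8.66. These control and siRNA arrays lay more than 1 log2 unit apart. The MIS12 complex, which links NDC80 to the centromere, fell less: DSN1 to 65.5%, PMF1 to 77.5% and NSL1 to 78.9% of the control level. A dimmer probe set of NSL1 was also lower, with means of 6.90 with control and 6.52 with TRIM24 siRNA. Another was not, with 5.97 and 6.05. MIS12 itself had 9.66, 9.67 and 9.61 against 9.44, 9.43 and 9.59. The groups did not overlap, but the fall of 0.16 ± 0.05 (adjusted p = 0.0158) was the smallest called, and it lost its call without the second LNCaP-abl control array or without the first or second with TRIM24 siRNA (adjusted p = 0.051, 0.0634 and 0.0714).

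In the corona CENPF, CENPE and ZWILCH fell and ZW10 did not pass. CENPF, a large farnesylated protein of the nuclear matrix and kinetochore, had 8.76, 8.92 and 8.81 with control and 6.82, 6.83 and 6.76 with TRIM24 siRNA. CENPE, the kinesin that moves chromosomes to the spindle equator, had 8.10, 8.34 and 7.98 against 6.34, 6.30 and 6.14. The control arrays of both stood clear of the siRNA arrays, at -2.03 ± 0.08 (adjusted p = 1.39e-11) and -1.89 ± 0.09 (adjusted p = 1.11e-10). ZWILCH fell to 38.9% of the control level. ZW10, its partner in the complex that brings dynein to kinetochores and which also works in membrane traffic between divisions, had 8.76, 8.83 and 8.76 against 8.73, 8.81 and 8.72. The ZW10 arrays overlapped, with a change of -0.03 ± 0.04 (95% interval -0.12 to 0.06).

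Of the constitutive centromere network 9 of 10 tested genes fell, with a median of -1.11. CENPU, a subunit that helps recruit Polo-like kinase, had 10.00, 9.92 and 10.00 with control and 8.28, 8.15 and 8.21 with TRIM24 siRNA (-1.76 ± 0.06; adjusted p = 1.29e-12). CENPK had 6.79, 6.70 and 6.58 against 5.01, 5.02 and 4.91 (-1.71 ± 0.13; adjusted p = 2.25e-08), and the siRNA values lie under 5.88, where such arrays compress differences. Neither gene's groups overlapped, though CENPK passed the filter on low values only through this control group and so was bound to fall. CENPH, which shares a complex with CENPK, fell to 37.8% of the control level, CENPW, a histone-fold subunit, to 33.6%, CENPN, which reads the CENP-A nucleosome, to 41.1%, CENPM to 52.4%, CENPO to 57.1%, CENPL, the partner of CENPN, to 66.3% and CENPQ, a partner of CENPU, to 68.4%. A second probe set of CENPO gave 0.03 (SE 0.11). CENPC, the scaffold that binds both CENP-A chromatin and the MIS12 complex, had 6.31, 6.52 and 6.52 against 6.49, 6.30 and 6.36. Its arrays overlapped, at -0.06 ± 0.08 (adjusted p = 0.534).

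Among the genes of CENP-A and its deposition, the loading factors fell and the histone did not pass. HJURP, the chaperone that carries new CENP-A, had 7.11, 7.23 and 7.0003 with control and 5.65, 5.84 and 6.06 with TRIM24 siRNA (-1.27 ± 0.09; adjusted p = 1.57e-08). OIP5, also named MIS18-beta, had 9.55, 9.55 and 9.50 against 8.27, 8.22 and 8.34 (-1.26 ± 0.05; adjusted p = 3.76e-11). Both were separated between the groups. HJURP passed the filter on low values only through the groups with control siRNA, so its fall was favoured in advance and its p-value adds no support. MIS18A, its partner in the MIS18 complex, fell to 64.9% of the control level. CENPA had 6.83, 6.84 and 6.97 against 6.71, 6.83 and 6.56. Its change of -0.18 ± 0.11 (adjusted p = 0.182) has a 95% interval of -0.41 to 0.04, and the values lie close to the filter. A further probe set is annotated to CENPA together with SLC35F6 and named no gene here. Both tested subunits of the SKA complex fell. SKA3 had 7.14, 7.51 and 7.04 against 6.50, 6.67 and 6.61 (-0.64 ± 0.12; adjusted p = 0.000293), and SKA2 had 9.89, 9.87 and 9.89 against 9.56, 9.49 and 9.54 (-0.35 ± 0.03; adjusted p = 2.71e-07). The groups of neither overlapped. The other probe set of SKA2 was further apart, with means of 8.60 with control and 7.85 with TRIM24 siRNA.

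**Figure D2:**
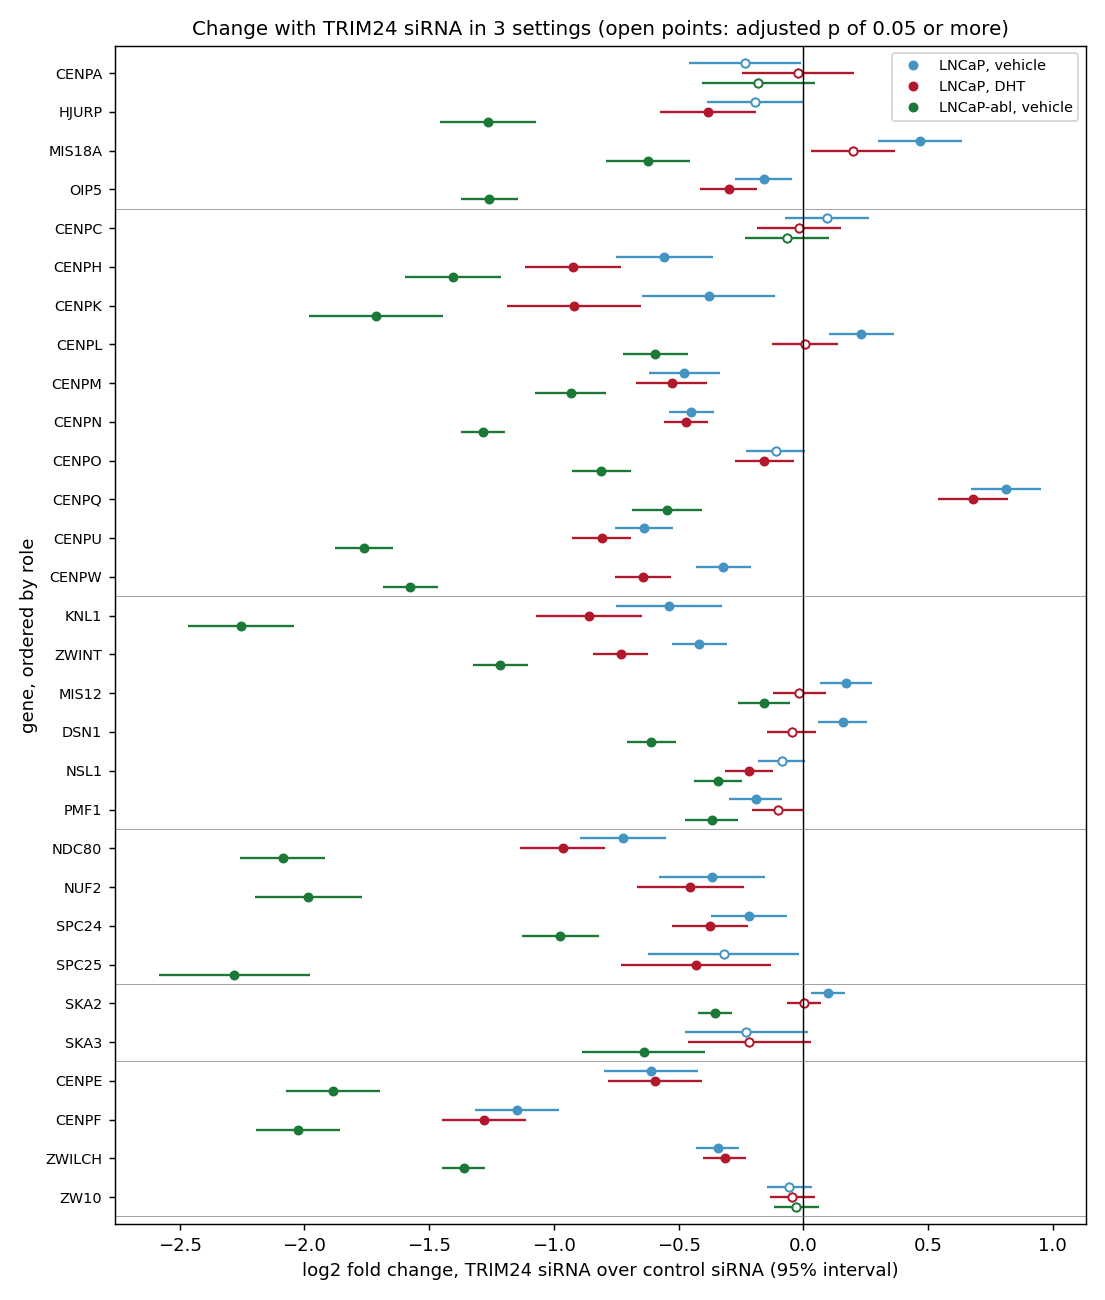
Log2 fold change of TRIM24 over control siRNA with its 95% interval (x axis) for the 30 tested genes (y axis, ordered by role) in LNCaP-abl and in LNCaP with either treatment (3 colours); open points did not pass an adjusted p of 0.05. The LNCaP-abl points lie left of the others for most genes, with a median of -1.09, and 6 called genes lie right of 0 in LNCaP with vehicle.

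In LNCaP with vehicle fewer of the same genes fell. Of 30 tested genes 16 fell and 6 rose with TRIM24 siRNA, against 18% of all genes called lower and 20.5% called higher (limma, adjusted p under 0.05). The median was -0.23, that of all tested genes 0.0037. The genes that rose were MIS18A, CENPL, CENPQ, MIS12, DSN1 and SKA2. Their number is near the share of all genes called higher, so it is no result about these genes as a group. Without the filter 16 fell and 5 rose of 32, and CENPI (0.04 ± 0.17) and SKA1 (-0.17 ± 0.11) did not pass.

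The largest fall was that of CENPF, from 6.83, 6.75 and 6.91 to 5.74, 5.78 and 5.54, or 45.2% of the control level (-1.15 ± 0.08; adjusted p = 1.04e-08). NDC80 followed, from 6.85, 6.90 and 6.70 to 6.21, 6.02 and 6.05 (-0.72 ± 0.08; adjusted p = 2.45e-06), and then CENPU, from 7.63, 7.67 and 7.55 to 7.01, 6.85 and 7.08 (-0.64 ± 0.06; adjusted p = 1.44e-07). The groups of these genes did not overlap. The CENPF values with TRIM24 siRNA lie under 5.88. Among LNCaP groups CENPF and CENPE passed the filter on low values only with control siRNA, so their ranks and p-values add no support. A second probe set of CENPF gave -0.42 ± 0.11, and the 2 dimmer ones of CENPU gave 0.02 ± 0.08 and -0.22 ± 0.12, neither called. CENPE, CENPH, KNL1, CENPM, CENPN, ZWINT, CENPK, NUF2, ZWILCH, CENPW, SPC24, PMF1 and OIP5 also fell, by 0.61 for CENPE down to 0.16 for OIP5. The 2 dimmer probe sets of CENPN were at 0.0026 and -0.0019 here. The calls of OIP5, CENPK and SPC24 were lost when any of 3 or 4 single arrays was left out. For OIP5 these were control 1 and 2 and siRNA 2 and 3, for CENPK control 1 and 2 and siRNA 2, and for SPC24 control 3 and siRNA 1 and 2; the adjusted p then reached 0.116, 0.147 and 0.101. NUF2 lost its call without siRNA array 3 (adjusted p = 0.052). CENPA without control 1, and SPC25 without control 3 or siRNA 1, passed instead.

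CENPQ rose most in LNCaP with vehicle, from 5.41, 5.65 and 5.55 to 6.37, 6.24 and 6.45 (0.81 ± 0.07; adjusted p = 7.1e-08), to 176% of the control level. MIS18A rose from 7.55, 7.72 and 7.53 to 8.07, 8.08 and 8.05 (0.47 ± 0.08; adjusted p = 0.000182) and CENPL from 7.52, 7.54 and 7.34 to 7.71, 7.77 and 7.61 (0.23 ± 0.06; adjusted p = 0.00686). No control array of these genes reached an siRNA array. The CENPQ control values lie under 5.88. Among LNCaP groups CENPQ passed the filter on low values only with TRIM24 siRNA, so its rank and p-value add no support. The rises of MIS12 (0.17 ± 0.05), DSN1 (0.16 ± 0.05) and SKA2 (0.10 ± 0.03) were small. MIS12 had 9.48, 9.53 and 9.37 with control and 9.66, 9.64 and 9.59 with TRIM24 siRNA. DSN1 had 6.46, 6.44 and 6.48 against 6.68, 6.56 and 6.62, and SKA2 8.86, 8.94 and 8.96 against 9.03, 9.002 and 9.02. These groups stood apart by little. MIS12 lost its call without control 3 (adjusted p = 0.063), DSN1 without siRNA 1 (adjusted p = 0.069) and SKA2 without control 1, siRNA 1 or siRNA 3 (adjusted p = 0.121, 0.0746 and 0.058). The other probe set of SKA2 gave -0.15 ± 0.07, and the mean of both -0.024. The other one of CENPL gave 0.11 ± 0.07, which did not pass (adjusted p = 0.279 among probe sets tested alone), and that of MIS18A rose by 0.32 ± 0.06. All 6 genes fell in LNCaP-abl.

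With DHT in LNCaP 19 of the 30 genes fell with TRIM24 siRNA and 1, CENPQ, rose by its brightest probe set, against 20.8% of all genes called lower and 19.4% higher, with a median of -0.34 (all tested genes 0.0066). CENPF had 7.07, 6.90 and 7.09 with control and 5.62, 5.68 and 5.91 with TRIM24 siRNA (-1.28 ± 0.08; limma adjusted p = 2.99e-09). NDC80 went from 7.29, 7.14 and 7.32 to 6.26, 6.29 and 6.29 (-0.97 ± 0.08; adjusted p = 9.14e-08), and CENPH from 7.60, 7.33 and 7.59 to 6.53, 6.59 and 6.63 (-0.92 ± 0.09; adjusted p = 6.1e-07). The siRNA arrays of all these lay below every control array. The CENPF mean with TRIM24 siRNA was 5.74, under 5.88. Since CENPF passed the filter among LNCaP groups only with control siRNA, its rank and p-value add no support here either. CENPQ rose from 5.82, 5.68 and 5.72 to 6.33, 6.45 and 6.48 (0.68 ± 0.07; adjusted p = 5.15e-07). Its control values lie under 5.88 here too, and the same limit of the filter holds. MIS18A was at 0.20 ± 0.08 (adjusted p = 0.0575) and would be a further rise without the third control array (0.28; adjusted p = 0.0128). Its other probe set rose by 0.35 ± 0.06 (adjusted p = 0.000275 among probe sets tested alone), so whether MIS18A is called depends on the probe set. Of the genes that fell, SPC24 had a second probe set at 0.04 ± 0.10, and CENPU, CENPN, CENPO and NSL1 each had 1 or 2 that did not pass. CENPL, MIS12, DSN1 and SKA2 lay between -0.05 and 0.01 by their brightest probe sets. The other probe set of SKA2 was lower with TRIM24 siRNA, with means of 7.83 with control and 7.60. CENPO lost its call without any 1 of 5 of the 6 arrays, all but the first control (adjusted p up to 0.171), and SPC25 without control 3 or siRNA 2 or 3 (up to 0.13). Without the filter 18 fell and 1 rose of 32.

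Over the 3 knockdown comparisons 15 genes fell in all, OIP5, CENPH, CENPK, CENPM, CENPN, CENPU, CENPW, KNL1, ZWINT, NDC80, NUF2, SPC24, CENPE, CENPF and ZWILCH. HJURP, CENPO, NSL1, PMF1 and SPC25 fell in 2 of them, MIS18A, CENPL, CENPQ, MIS12, DSN1, SKA2 and SKA3 in 1, that in LNCaP-abl, and CENPA, CENPC and ZW10 in none. The share of all genes that fell in all 3 was not counted. Of the 15 genes, OIP5, CENPK, SPC24 and NUF2 lost their calls in vehicle-treated LNCaP when single arrays were left out. Dimmer probe sets of CENPN and CENPU were not called there. The second probe set of SPC24 did not fall clearly in LNCaP-abl or under DHT. In each pair of groups the measures of RNA quality moved with the siRNA. GAPDH has control probe sets for either end of its transcript, and the 3' log2 signal exceeded the 5' signal by 0.52 with control and 0.59 with TRIM24 siRNA in vehicle-treated LNCaP. The values were 0.56 and 0.63 under DHT and, for LNCaP-abl, 0.56 and 0.64. For ACTB they were 1.87 and 2.05 in vehicle-treated LNCaP, 1.85 and 2.19 under DHT, and 1.87 and 1.99 in LNCaP-abl. With the GAPDH measure as a covariate, 12 genes fell and 2 rose in LNCaP with vehicle, 13 fell and 1 rose with DHT, and 26 fell in LNCaP-abl. ACTB was not used as a covariate. Genes of general proliferation moved in the same arrays: 9 of 9 fell in LNCaP-abl, 6 of 9 fell in LNCaP with DHT, and with vehicle 4 fell and MCM2 rose. The shares of all genes called lower were 28.8%, 20.8% and 18% in that order, and 20.5% were called higher with vehicle. The part of RNA quality or of proliferation in the change of the kinetochore genes was not tested.

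**Figure D3:**
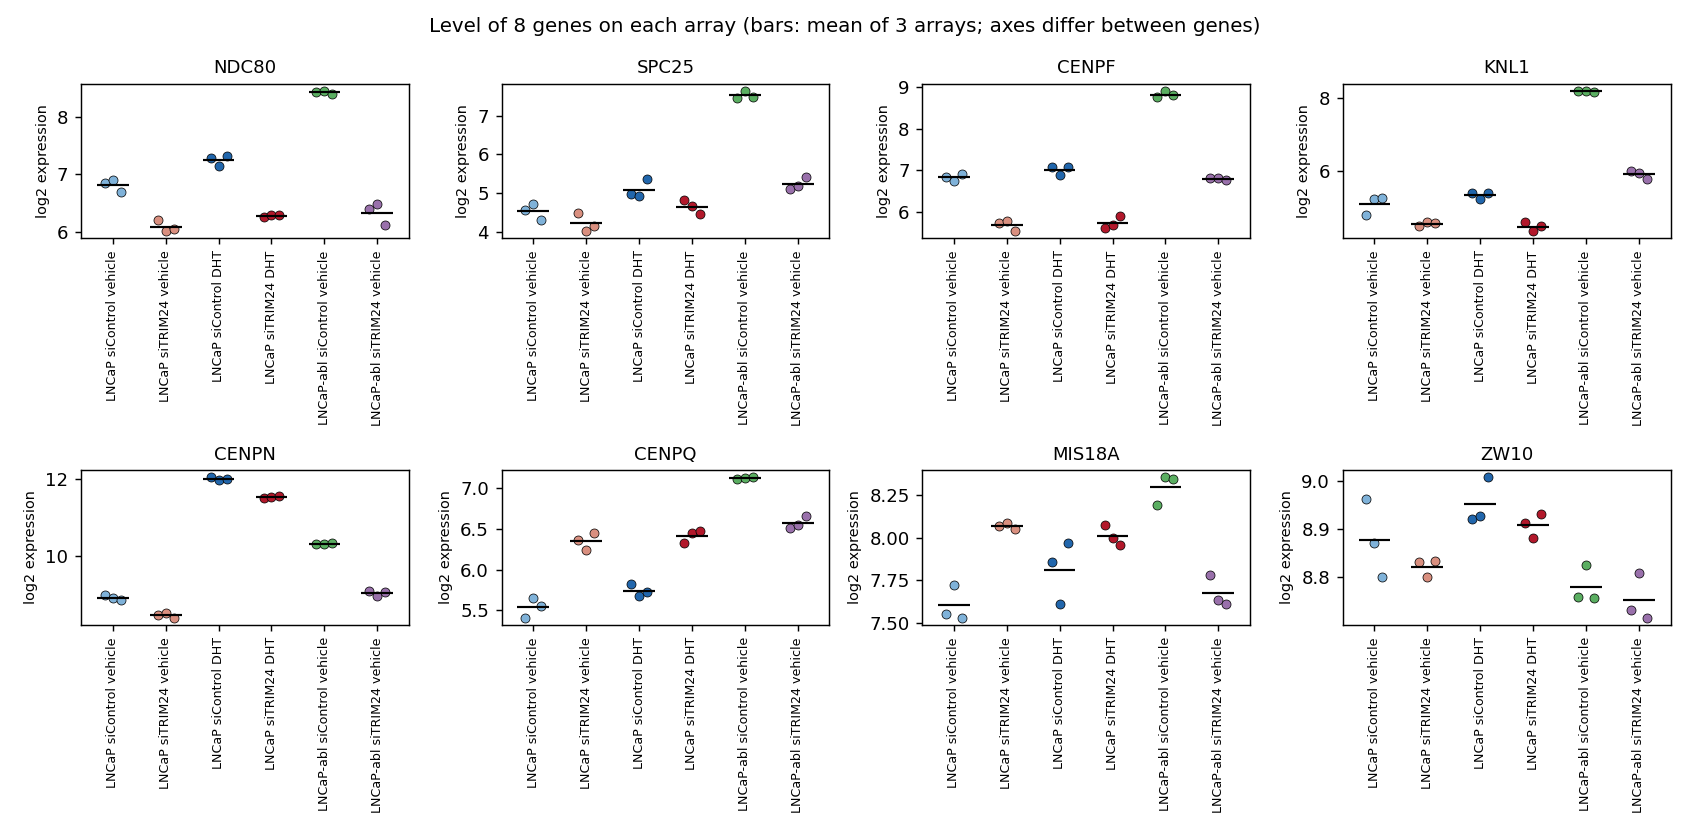
Log2 value on each array (points, 3 per group) and group mean (bars) for NDC80, SPC25, CENPF, KNL1, CENPN, CENPQ, MIS18A and ZW10, with the 6 groups on the x axis; the y axes differ between genes and do not start at 0. CENPQ rises with TRIM24 siRNA in LNCaP and falls in LNCaP-abl, and CENPN reaches 12.05 with DHT.

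Whether TRIM24 siRNA changed these genes by a different amount in the 2 lines was tested with the interaction of knockdown with cell line, the change in LNCaP-abl minus that in LNCaP, both with vehicle. Of 30 genes 25 had a lower change in LNCaP-abl and none a higher one, against 19.9% and 8.58% of all genes. The median was -0.84 (all tested genes -0.032). SPC25 had the largest difference at -1.96 ± 0.20 (limma adjusted p = 4.98e-06), then KNL1 at -1.72 ± 0.14 (adjusted p = 5.32e-07), NUF2 at -1.62 ± 0.14 (adjusted p = 1.09e-06), NDC80 at -1.36 ± 0.11 (adjusted p = 6.19e-07) and CENPQ at -1.36 ± 0.09 (adjusted p = 8.59e-08). SPC25 passed the filter on low values through LNCaP-abl control alone and KNL1 through the LNCaP-abl groups. Their means in LNCaP with vehicle, 4.54 and 4.22 for SPC25 and 5.11 and 4.57 for KNL1 with control and TRIM24 siRNA, lie under 5.88, where the change in LNCaP can be too small and the difference too large, so their rank is uncertain. For SPC25, KNL1, NUF2 and NDC80 this joined a fall in LNCaP-abl to a smaller change of the same sign in LNCaP, and for CENPQ a fall to a rise. The CENPQ values of LNCaP with control siRNA and vehicle also lie under 5.88. The difference was also called for the other genes with opposite signs by the brightest probe set, MIS18A (-1.09 ± 0.11), CENPL (-0.83 ± 0.09), DSN1 (-0.77 ± 0.07), SKA2 (-0.45 ± 0.05) and MIS12 (-0.33 ± 0.07). Further probe sets of CENPO (-0.05 ± 0.16), SPC24 (0.09 ± 0.14) and NSL1 (0.02 ± 0.14) did not pass where the brightest was called. CENPA (0.05 ± 0.15), CENPC (-0.16 ± 0.11), PMF1 (-0.18 ± 0.07), SKA3 (-0.41 ± 0.16) and ZW10 (0.03 ± 0.06) did not pass; PMF1 passed without the first LNCaP-abl siRNA array or the third LNCaP siRNA array, and SKA3 without the third LNCaP-abl control array.

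With DHT the knockdown change differed from that with vehicle for 2 genes, both lower and none higher (5.70% and 5.38% of all genes). They were CENPW at -0.32 ± 0.07 (limma adjusted p = 0.0107) and ZWINT at -0.32 ± 0.07 (adjusted p = 0.0125). CENPW fell by 0.32 with vehicle, from 8.07, 8.19 and 8.15 to 7.82, 7.72 and 7.92, and by 0.64 with DHT, from 8.65, 8.54 and 8.64 to 7.96, 7.99 and 7.95. Its control arrays were higher with DHT, while its siRNA arrays rose by only 0.15. The median interaction of the 30 genes was -0.13, that of all tested genes -0.013, and CENPK had the largest estimate at -0.54 ± 0.18 (adjusted p = 0.0655). The CENPK means lie under 5.88 in every LNCaP group, so the size of this estimate is uncertain. The count rests on single arrays: it was 6 without the second LNCaP control array with DHT and 4 without the second LNCaP siRNA array with vehicle. CENPK passed in both cases.

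DHT raised these genes in LNCaP with control siRNA, mostly by little, with CENPN far above the rest. Of 30 genes 18 rose and 2 fell, against 19.4% and 26.4% of all genes called higher and lower, with a median of 0.25 (all tested genes -0.036). CENPN had 8.99, 8.92 and 8.86 with vehicle and 12.05, 11.99 and 12.02 with DHT. The groups lay far apart, with an 8.56-fold rise (3.10 ± 0.04; limma adjusted p = 1.21e-17). Its 2 dimmer probe sets that passed the filter rose by 4.54 ± 0.09 and 4.69 ± 0.08. CENPK rose from 5.01, 5.16 and 4.84 to 5.89, 5.45 and 5.80 (0.71 ± 0.13; adjusted p = 0.000202) and NUF2 from 6.20, 6.49 and 6.30 to 6.99, 6.82 and 7.02 (0.62 ± 0.10; adjusted p = 8.76e-05). No array of either gene overlapped between vehicle and DHT. The CENPK means, 5.00 with vehicle and 5.72 with DHT, lie under 5.88, where differences are compressed, so its size and rank are uncertain. SPC25 (0.54), CENPW (0.47), DSN1 (0.46), CENPU (0.45), NDC80 (0.43), CENPH (0.37), ZWINT (0.34), CENPO (0.31), HJURP (0.29), CENPL (0.28), ZWILCH (0.28), MIS12 (0.24), OIP5 (0.21), MIS18A (0.21) and CENPQ (0.20) rose as well. The other probe set of MIS18A was at 0.024 ± 0.06, and the mean of both was 0.05 (adjusted p = 0.581). Second probe sets of CENPL (0.16 ± 0.07) and CENPO (0.14 ± 0.11) did not pass either.

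SKA2 and NSL1 fell with DHT. SKA2 went from 8.86, 8.94 and 8.96 to 8.76, 8.77 and 8.76 (-0.15 ± 0.03; limma adjusted p = 0.00101), but its other probe set rose (0.23 ± 0.07; adjusted p = 0.0199 among probe sets tested alone). NSL1, of the MIS12 complex, went from 10.28, 10.30 and 10.33 to 10.19, 10.15 and 10.16 (-0.14 ± 0.04; adjusted p = 0.0169), and its other probe sets were at 0.05 ± 0.07 and -0.04 ± 0.10. The fall of either gene therefore rests on 1 probe set. CENPE (0.02 ± 0.09), PMF1, CENPM, SKA3, ZW10, CENPA, SPC24 and CENPC did not pass, nor did CENPF (0.19 ± 0.08; adjusted p = 0.0657) and KNL1 (0.25 ± 0.10; adjusted p = 0.0517). Several calls turned on single arrays. HJURP lost its call without DHT 1 or vehicle 2, CENPQ without DHT 1 or vehicle 1, MIS18A without DHT 1 or 3 or vehicle 1 or 3, and NSL1 without vehicle 3 (adjusted p up to 0.0727, 0.117, 0.206 and 0.0571). CENPF passed without DHT 2, KNL1 without DHT 2, vehicle 2 or vehicle 3, ZW10 without vehicle 1 and CENPC without vehicle 3. Without the filter 18 rose and 2 fell of 32, with CENPI at 0.49 ± 0.17 (adjusted p = 0.0411).

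With TRIM24 siRNA 8 genes rose with DHT and 3 fell (16.9% and 26.6% of all genes), with a median of 0.08 (all tested genes -0.037). CENPN rose from 8.48, 8.53 and 8.41 to 11.53, 11.54 and 11.58 (3.08 ± 0.04; limma adjusted p = 2.01e-17), and the interaction of -0.02 ± 0.06 has a 95% interval of -0.15 to 0.10. NUF2 rose by 0.53 ± 0.10, from 6.08, 6.06 and 5.75 to 6.70, 6.32 and 6.46, and SPC25 by 0.43 ± 0.14, from 4.48, 4.03 and 4.15 to 4.83, 4.67 and 4.47. NUF2 arrays did not overlap, whereas those of SPC25 did. ZWILCH, CENPU, CENPO, DSN1 and CENPW also rose, by 0.15 to 0.31. NSL1 (-0.27 ± 0.04), SKA2 (-0.25 ± 0.03) and CENPC (-0.24 ± 0.08) fell. The other probe set of SKA2 was at 0.14 ± 0.07, with a mean of both of -0.05 (adjusted p = 0.368), and those of NSL1 were at -0.14 ± 0.07 and -0.04 ± 0.10, none called. The second probe set of CENPO was at -0.14 ± 0.11, with a mean of 0.06 (adjusted p = 0.506), and 1 of those of CENPU was at -0.02 ± 0.08. Of the 18 genes that rose with control siRNA and the 8 that rose here, the interaction was called for CENPW and ZWINT only, so a difference in response was not shown for the others. CENPC lost its call without the first array of either group, SPC25 without vehicle 2 or 3 or DHT 1 or 2, and CENPW without vehicle 1 or 2 or any DHT array (adjusted p up to 0.104, 0.101 and 0.172). PMF1 and NDC80 passed without vehicle 1, and OIP5 without DHT 3.

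**Figure D4:**
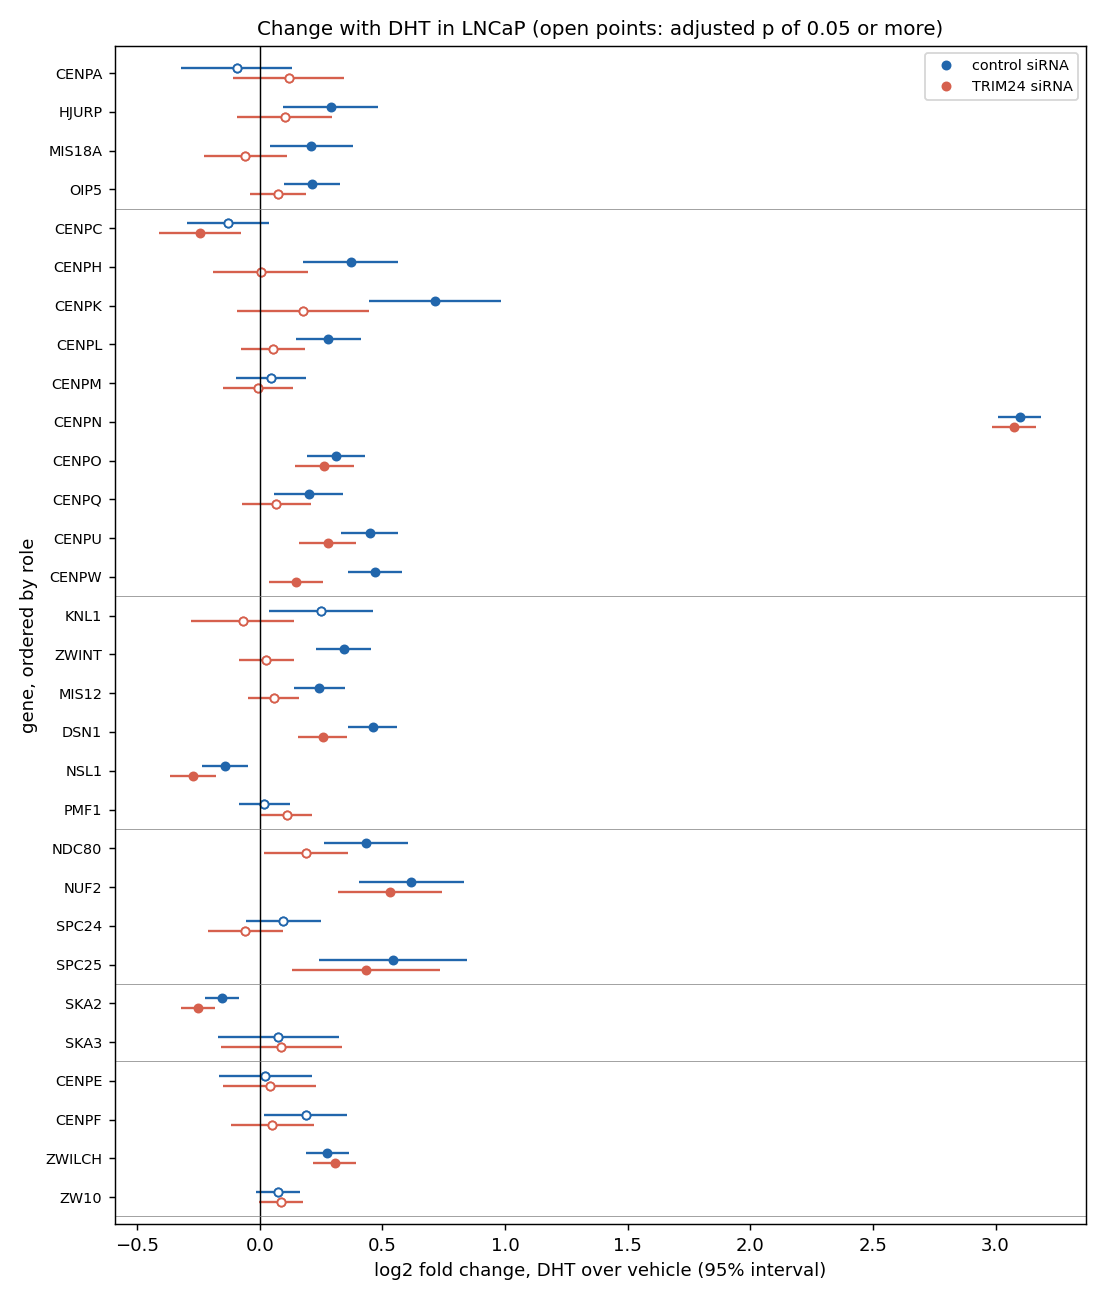
Log2 fold change of DHT over vehicle in LNCaP with its 95% interval (x axis) for the 30 tested genes (y axis) with control and TRIM24 siRNA; open points did not pass an adjusted p of 0.05. CENPN lies at 3.10 and 3.08, and the other genes between -0.27 and 0.71.

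LNCaP-abl carried more of nearly all these transcripts than LNCaP, both with vehicle. With control siRNA 28 of 30 genes were higher and none lower, against 29.1% and 34.6% of all genes, with a median of 1.12 (all tested genes -0.020), and 16 were at least 2-fold higher. The share of all genes at least 2-fold higher was not counted. KNL1 had 8.18, 8.20 and 8.15 in LNCaP-abl and 4.82, 5.25 and 5.27 in LNCaP, an 8.36-fold difference (3.06 ± 0.10; limma adjusted p = 1.34e-13). SPC25 had 7.45, 7.65 and 7.48 against 4.57, 4.73 and 4.32, a 7.91-fold difference (adjusted p = 1.67e-11), and CENPU 10.00, 9.92 and 10.00 against 7.63, 7.67 and 7.55, 5.13-fold (adjusted p = 2.14e-15). The lines did not overlap for these genes. LNCaP values of KNL1 and SPC25 lie below 5.88, so the fold changes can be too small. SPC25 passed the filter on low values only through LNCaP-abl control, and KNL1 only through the LNCaP-abl groups. Both were thus bound to be higher in LNCaP-abl, and their adjusted p-values add no support for the difference. All 4 NDC80 subunits were over 2-fold higher, as were CENPE, CENPF and OIP5. The second probe set of SPC24 was at -0.035 ± 0.096, so its difference rests on 1 of 2 probe sets. NSL1 (-0.04 ± 0.04) and ZW10 (-0.10 ± 0.04; adjusted p = 0.0544) did not pass. ZW10 was called lower without the third LNCaP control array or the second LNCaP-abl control array (-0.14 and -0.12), CENPA lost its call without the first LNCaP array, and CENPC without LNCaP array 3 or LNCaP-abl array 2 or 3. Without the filter 30 of 32 were higher, CENPI by 0.69 ± 0.17 and SKA1 by 0.43 ± 0.11.

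After TRIM24 siRNA the lines lay closer. Of 30 genes 19 were higher in LNCaP-abl and 5 lower (29.6% and 40.2% of all genes), with a median of 0.36 (all tested genes -0.029), and 4 were at least 2-fold higher. Here too the share of all genes at least 2-fold higher was not counted. KNL1 was 2.54-fold higher, with 6.01, 5.96 and 5.79 against 4.51, 4.62 and 4.60, CENPU 2.36-fold and CENPF 2.17-fold. KNL1 passed the filter on low values only through the LNCaP-abl groups, so it was bound to be higher there. MIS18A was lower in LNCaP-abl (-0.40 ± 0.08; limma adjusted p = 0.000334), with 7.78, 7.63 and 7.61 against 8.07, 8.08 and 8.05, as were NSL1 (-0.30 ± 0.04), CENPW (-0.18 ± 0.05), ZWILCH (-0.17 ± 0.04) and MIS12 (-0.14 ± 0.05). Second probe sets of CENPF (0.18 ± 0.11) and SPC24 (0.06 ± 0.10) and 1 of 2 of CENPU (0.09 ± 0.08) did not pass. The order of the lines for CENPN depends on the probe set: the brightest gave 0.57 ± 0.04, and the 2 dimmer ones -0.33 ± 0.09 and -0.60 ± 0.08. CENPK lost its call without siRNA array 2 of either line, NDC80 without LNCaP-abl 1 or 2 or LNCaP 2, and MIS12 without LNCaP-abl 1 or 2 or LNCaP 1. The comparisons of lines, of siRNA and of DHT share arrays, so a high LNCaP-abl control group enters both the fall with TRIM24 siRNA and the difference between lines; the values stand side by side and are not independent.

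**Figure D5:**
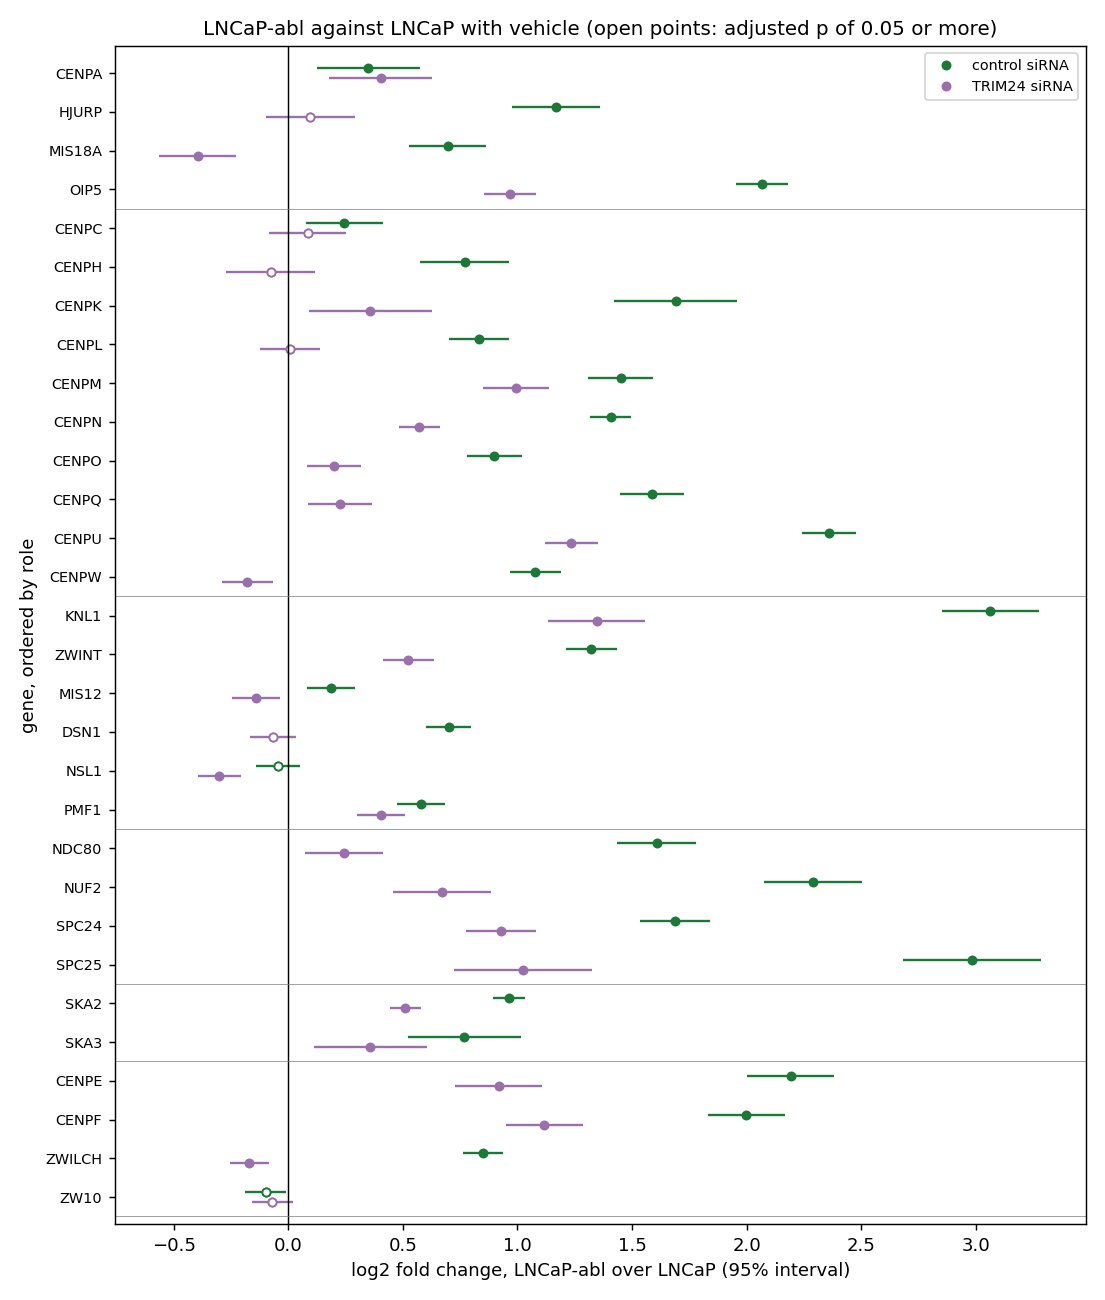
Log2 fold change of LNCaP-abl over LNCaP, both with vehicle, with its 95% interval (x axis) for the 30 tested genes (y axis) with control and TRIM24 siRNA; open points did not pass an adjusted p of 0.05. With control siRNA the median is 1.12 and with TRIM24 siRNA 0.36.

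Other genes of the kinetochore and its checkpoint were listed beside these. Of 11 spindle checkpoint and corona partner genes 10 fell and none rose with TRIM24 siRNA in LNCaP-abl, with a median of -1.38, against 28.8% of all genes called lower. TTK, the checkpoint kinase, fell by 2.08 ± 0.09 (limma adjusted p = 3.63e-11) and CDC20, the target of the checkpoint, fell by 2.06 ± 0.06 (adjusted p = 1.15e-12). MAD1L1 did not pass (-0.03 ± 0.08). In LNCaP 4 of the 11 fell and MAD1L1 (0.27 ± 0.08) and SPDL1 (0.28 ± 0.07) rose with vehicle, and 7 fell and SPDL1 rose (0.29 ± 0.07) with DHT. Of all genes 18% were called lower and 20.5% higher with vehicle, and 20.8% lower and 19.4% higher with DHT. The number of rises with vehicle is near that share. SPDL1, which brings dynein to kinetochores, thus rose in LNCaP with either treatment and fell in LNCaP-abl (-0.82 ± 0.07). Of the 6 genes above that rose with vehicle, CENPQ did the same. The others were not called with DHT by their brightest probe sets. Of 6 tested genes of the chromosomal passengers and cohesion guards 5 fell in each of the 3 knockdowns and PLK1 passed in none. In LNCaP-abl SGO2, a guard of centromeric cohesion, fell by 2.04 ± 0.08 and BIRC5, or survivin, fell by 1.65 ± 0.05. INCENP, SGO1, HASPIN and KIF18A were not tested.

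Of 7 other centromere genes 3 were tested. CENPB, which binds centromeric satellite DNA, was at -0.02 ± 0.06 with TRIM24 siRNA in LNCaP-abl and CENPX, a histone-fold subunit, at 0.08 ± 0.04, while ITGB3BP, the CENP-R subunit, fell by 0.30 ± 0.05. In LNCaP with vehicle ITGB3BP (0.21 ± 0.05) and CENPX (0.14 ± 0.04) rose, and with DHT CENPB (0.17 ± 0.06) and CENPX (0.16 ± 0.04) did. The 9 general proliferation genes all fell in LNCaP-abl, with a median of -1.48, where TOP2A fell by 2.03 ± 0.07 and CCNB1 fell by 1.77 ± 0.05, and all 9 were higher in LNCaP-abl than in LNCaP with control siRNA. Of all genes 28.8% were called lower with TRIM24 siRNA in LNCaP-abl, and 29.1% higher there than in LNCaP with control siRNA. With DHT and control siRNA 6 of 11 checkpoint, 4 of 6 passenger and 5 of 9 proliferation genes rose, against 19.4% of all genes, and MCM2 (-0.27 ± 0.04) and ITGB3BP (-0.13 ± 0.05) fell. With DHT and TRIM24 siRNA MCM2 (-0.50 ± 0.04), ITGB3BP (-0.22 ± 0.05) and BUB3 (-0.19 ± 0.05), a checkpoint protein, fell. In LNCaP-abl against LNCaP, BUB3 (-0.18 ± 0.05) and MAD1L1 (-0.28 ± 0.08) were lower with control siRNA. With TRIM24 siRNA TRIP13, MAD1L1, BUB3, CENPB, CDK1, MCM2 and MCM5 were lower, at -0.67 for TRIP13 to -0.20 for MCM5. The interaction of knockdown with cell line was called lower for 10 of 11, 5 of 6 and 9 of 9 of these lists and for 1 of the 3 other centromere genes, against 19.9% of all genes. These lists too were chosen with results of these data known.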

How the data were processed

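Total RNA of 18 samples was measured on one-colour Affymetrix arrays. The authors deposited log2 values per probe set, and the submitters' processing notes name RMA; its version is not given in the sources used here. RMA equalises arrays, so a change of most transcripts would not show, and differences of dim genes are compressed. Of 54675 probe sets 41097 carried 1 gene symbol, 1801 several, which named no gene, and 11777 none.

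With limma 3.58.1 in R 4.3.3, 1 model with a mean per group took in all 18 arrays, on the brightest probe set of each gene whose third-highest value reached 5.88, 13607 of 19775 genes, with 12 residual degrees of freedom, over 9 comparisons. Calls are at a two-sided Benjamini-Hochberg adjusted p under 0.05 over all genes tested. Shares of all genes are given for these calls only. None were counted at a fold-change cut, without the filter or under the other alternatives. The median residual SD was 0.073, and 3 arrays per group limit the precision. The fit was tested on simulated data.

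All 32 genes are named. Array values are given, per role, for the 2 largest and the smallest change with knockdown in LNCaP-abl, and for members not called there or called in the opposite direction; other comparisons give the 3 largest called each way, interactions the 5 largest, and other pathway lists the 2 largest and opposite calls. The members and lists were chosen with earlier results of these data known. Some markers of the lists were not analysed here. Alternatives were other probe set choices, filters, scalings, thresholds and variance models, array weights, only the groups compared, the replicate number as a block, a GAPDH 3' to 5' covariate, and the omission of each array.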

Additional observations from a re-analysis of the deposited data

Results flagged for a closer look

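The change with TRIM24 siRNA differed between LNCaP-abl and LNCaP by the interaction test (limma, adjusted p under 0.05) for 25 of 30 tested genes, in each case with the lower change in LNCaP-abl, against 19.9% of all genes called lower and 8.58% higher. SPC25 differed by -1.96, KNL1 by -1.72, NUF2 by -1.62, NDC80 by -1.36 and CENPQ by -1.36. The LNCaP values of SPC25 and KNL1 lie under 5.88 with either siRNA, and those of CENPQ with control siRNA. Differences are compressed there, so the size and rank of these genes are uncertain. By the brightest probe sets the changes of 6 genes had opposite signs in the lines, a rise in LNCaP with vehicle and a fall in LNCaP-abl: CENPQ, MIS18A (-1.09), CENPL (-0.83), DSN1 (-0.77), SKA2 (-0.45) and MIS12 (-0.33). The rises of SKA2 and CENPL in LNCaP were called with 1 of their 2 probe sets. The other probe set of SKA2 was lower with TRIM24 siRNA in both lines, with means of 7.61 and 7.46 in LNCaP and 8.60 and 7.85 in LNCaP-abl. The small rises of MIS12, DSN1 and SKA2 lost their calls without single arrays. With the GAPDH covariate 2 of the 6 rises were called. The number of rises in LNCaP with vehicle is near the 20.5% of all genes called higher there. It is thus no result about these genes as a group.

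The change with TRIM24 siRNA differed between DHT and vehicle for 2 genes by the same test, CENPW (-0.32) and ZWINT (-0.32), both lower with DHT. That is near the 5.70% of all genes called lower, and the count ran from 0 at an adjusted p under 0.01 to 6 with 1 array left out, so it is no result about these genes as a group.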

How the results depend on the processing

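Of 270 member comparisons 179 were called; the direction reversed under 3 probe set choices only, for SKA2, NSL1 and CENPN; the cause was not tested. SKA2 in LNCaP with vehicle went to -0.024 and with DHT and control siRNA to 0.037 (mean of its probe sets, and tested alone), NSL1 with DHT to 0.054 (most variable probe set), and CENPN, in LNCaP-abl against LNCaP with TRIM24 siRNA, to -0.60 (most variable; adjusted p = 6.79e-06), -0.048 (mean) and -0.33 (alone). A log2 fold change of at least 0.5 left 6 lower and 1 higher for knockdown in LNCaP with vehicle, 10 lower with DHT, 0 lower and 4 higher for DHT with control siRNA, 0 and 2 with TRIM24 siRNA, 0 lower and 12 higher for LNCaP-abl against LNCaP with TRIM24 siRNA, and 0 for the interaction with DHT. At an adjusted p under 0.01 the 6 rises of knockdown with vehicle became 3, the 2 falls with DHT and control siRNA 1, and the 2 interactions with DHT 0. With the GAPDH covariate the 6 rises became 2 and the 2 falls 1. The single rise of knockdown with DHT became 2 under a stricter filter, the mean of probe sets, quantile normalization and an intensity trend, and 1 to 2 with 1 array left out (2 without LNCaP control DHT 3). The 2 falls with DHT became 1 with the most variable probe set or centring and 0 with the mean of probe sets or each alone, and the 3 falls with TRIM24 siRNA became 1 with each alone. LNCaP-abl against LNCaP gained 1 lower gene under a stricter filter, the mean of probe sets and array weights, and 0 to 1 with 1 array left out (LNCaP control vehicle 3, LNCaP-abl control 2); with TRIM24 siRNA 5 lower became 2 under quantile normalization. The 2 interactions with DHT became 5 with array weights and 2 to 6 with 1 array left out (6 without LNCaP control DHT 2, 4 without LNCaP siTRIM24 vehicle 2). Other counts stayed within 1.5 times: knockdown in LNCaP-abl gave 23 to 27 falls and the interaction with cell line 21 to 27. Equal replicate numbers did not pair arrays: the deviations of 45 same-numbered pairs correlated at -0.30 to 0.20, and of 90 others at -0.24 to 0.29. A replicate block gained 3 calls and lost 2, and gave 27 falls in LNCaP-abl. Scaling moved the median of all genes by at most 0.056. Only 3 arrays per group and signal near background limit the dim genes, among them CENPI, SKA1, CENPK and SPC25.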
